A study of Mus musculus with 36 samples.

Results

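Gene expression was examined for 9 genes that mark position along the anterior-posterior axis of the embryo outside the Hox clusters: Otx1, En1, En2, Gbx2, Egr2, Cdx1, Cdx2, Cdx4 and Mnx1. They were chosen by name from the 51734 gene symbols of the count table for their known roles in midbrain, hindbrain and spinal cord identity. The choice was made with earlier results of these data known, so counts and medians of the members only describe them. They were followed over 18 mRNA sequencing libraries of mouse embryonic stem cells (ESC) and of neural progenitor cells (NPC) made from them. The study asked how gene expression depends on the enzyme activity of MLL3 and MLL4.

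The axis of the neural tube is laid down by transcription factors that are each switched on in a band of cells. Otx1 belongs to forebrain and midbrain, En1 and En2 to the midbrain-hindbrain boundary, Gbx2 to the anterior hindbrain, and Egr2 (also called Krox20) to alternating segments of the hindbrain. Cdx1, Cdx2 and Cdx4 mark the tail end of the embryo, where they act upstream of Hox genes, and Mnx1 (also called Hb9) marks spinal motor neurons. Retinoic acid, the agent used here to make NPC, is known to move neural cells towards hindbrain and spinal identity. Several of the genes also work elsewhere. Gbx2 is a target of the cytokine LIF in ESC, Cdx2 is a determinant of trophectoderm and gut, Egr2 is an immediate early gene and a Schwann cell factor, and Mnx1 also acts in the pancreas. MLL2, MLL3 and MLL4, encoded by Kmt2b, Kmt2c and Kmt2d, methylate lysine 4 of histone H3, MLL2 mainly at CpG-rich promoters and MLL3 and MLL4 mainly at enhancers.

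The libraries formed 6 groups of 3. All came from E14, a mouse ESC line. WT was wild type, dCD was labelled MLL3/4 dCD and has MLL3 and MLL4 without their enzyme activity, and MLL2dTAG was labelled MLL2 dTAG in an otherwise wild-type background and carries a degron on MLL2, so that the small molecule dTAG-13 can send the protein for breakdown. Each genotype was measured as ESC and as NPC. ESC were grown with serum replacement and LIF. NPC were made with retinoic acid, received 2 µM dTAG-13 from day 1 and were harvested on day 4. dTAG-13 is labelled for all 18 libraries, WT and ESC included, so its own effect cannot be told apart from that of culture, and how long ESC received it is not given in the sources used here. Each genotype is a line of its own, so the edit and the line cannot be told apart. Nothing says that replicates were separate cultures, so p-values measure only the spread between these libraries, which may be technical.

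Library totals were 19430860 to 46041277 counts. Expression is given as CPM, a count divided by the library total and scaled with TMM factors, and 3 counts, the limit that a count of 0 allows, equal 0.0662 to 0.160 CPM in a library. ESC WT replicate 2 stood apart from its group, with a chi-square per degree of freedom of 10.5 and 8.38 against its replicates, while the other 16 replicate pairs gave 2.19 to 4.43. Changes from ESC WT of the 9 genes and counts of the lists beside them are therefore also given without it. The mRNA of Kmt2b, Kmt2c and Kmt2d was present in every group, with group means from 166 to 322 CPM, and does not check the labels, because neither edit is one that removes the mRNA. Of 8 neural progenitor genes listed, 6 were higher in WT NPC than in WT ESC (5 without ESC WT replicate 2), in a comparison that called 39.1% of all genes higher, among them Pax6 (38.9 ± 1.16 against 1.75 ± 0.612 CPM, SD, n = 3), and Sox2 was lower (14.4 ± 0.383 against 311 ± 16.4 CPM). The summed level of the list was lower in NPC WT, at 245 to 263 CPM against 430 to 452 CPM in ESC WT. All 9 endoderm genes tested were also higher in WT NPC than in WT ESC.

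Of the 9 genes, 8 passed the low-count filter. Cdx4 did not: it had 0 to 4 counts in each library and 0 in the 3 libraries each of NPC WT and NPC dCD. No fold is given for it. Otx1 passed only through ESC WT, the group where it was highest, so that it had to differ there, and its changes from ESC WT are not read as support for anything. Egr2 and Cdx2 had no ESC WT library above the filter's level of 0.312 CPM.

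Promoter sequence was examined for CpG, the dinucleotide whose clusters mark a large class of promoters and attract MLL2. RefSeq windows of 300 bases around the start site (GRCm38.p6) matched 6 of the 9 genes, and Otx1, En2 and Cdx1 were not matched. They held 27 CpG for Gbx2, 23 for En1, 26 for Mnx1, 18 for Cdx2, 32 for Egr2 and 8 for Cdx4, beside a median of 7 over 32851 windows. The count of Gbx2 was reached by 15.5% of all windows and that of Cdx2 by 29.7%. The stretches upstream of the start of 4 members are printed because the results on the lines turn on these genes, 5′ to 3′ on the gene's strand, with CpG in capitals. They lie at chr1:89931180-89931426 (minus strand) for Gbx2, chr5:147307271-147307499 (minus) for Cdx2, chr1:120602237-120602417 (plus) for En1 and chr5:29478471-29478720 (minus) for Mnx1.
Gbx2: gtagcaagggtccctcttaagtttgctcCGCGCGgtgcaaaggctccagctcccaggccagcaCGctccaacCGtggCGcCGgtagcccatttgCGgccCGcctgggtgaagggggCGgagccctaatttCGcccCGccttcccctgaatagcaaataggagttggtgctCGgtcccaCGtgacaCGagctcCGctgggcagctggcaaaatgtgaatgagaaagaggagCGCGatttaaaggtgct
Cdx2: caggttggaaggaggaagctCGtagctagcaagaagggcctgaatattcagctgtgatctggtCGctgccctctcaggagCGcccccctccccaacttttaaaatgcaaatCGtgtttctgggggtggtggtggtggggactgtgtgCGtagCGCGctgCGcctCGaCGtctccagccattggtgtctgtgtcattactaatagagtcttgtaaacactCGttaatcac
En1: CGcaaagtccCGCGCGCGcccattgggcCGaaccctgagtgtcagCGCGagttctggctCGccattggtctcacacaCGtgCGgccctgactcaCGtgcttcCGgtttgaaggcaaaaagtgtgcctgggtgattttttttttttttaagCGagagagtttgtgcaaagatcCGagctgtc
Mnx1: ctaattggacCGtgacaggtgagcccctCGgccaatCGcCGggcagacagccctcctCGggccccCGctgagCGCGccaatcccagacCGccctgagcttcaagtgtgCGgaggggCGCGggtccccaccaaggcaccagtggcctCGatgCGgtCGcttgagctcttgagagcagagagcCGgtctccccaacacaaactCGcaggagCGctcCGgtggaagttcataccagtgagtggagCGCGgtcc
Searched on both strands of the 300-base windows, the retinoic acid half-site AGGTCA was in none of the 6, as against 16.3% of all windows, and its variant AGTTCA was in that of Mnx1 (14.0% of all windows). CTTTGA, a core of TCF sites, was in none (16.0%). CCAAT was in those of En1, Mnx1, Cdx2 and Cdx4 (37.4%). These are letter matches and say nothing of binding.

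The course of the 9 genes in wild-type cells was taken first, as the background for the edited lines. From ESC to NPC, Cdx2, Egr2 and Mnx1 were higher, and Gbx2, Cdx1, En2 and Otx1 were lower. The 4 lower include Otx1, which passed the filter only through ESC WT. Of the 8 members tested, 3 were higher and 4 lower in WT NPC, in a comparison in which 79.5% of all 20511 genes tested were called (39.1% higher, 40.4% lower). That share is so high that a call by itself says little, and the sizes are what is described. Genes were called at a Benjamini-Hochberg adjusted p under 0.05 in the edgeR quasi-likelihood test.

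Cdx2 had 0.106, 0 and 0.136 CPM in the 3 ESC WT libraries, which is 6 counts in all, and 0.759, 0.985 and 0.530 CPM in the NPC WT libraries. The groups did not overlap, and the log2 change was 3.24 (SE 0.53, edgeR adjusted p = 1.3e-06). The value leans on single ESC WT libraries: it was 2.58 without replicate 2 and 4.08 without replicate 3. Egr2 had 0.106, 0.133 and 0.204 CPM in ESC WT and 1.04, 1.62 and 1.45 CPM in NPC WT, a log2 change of 3.14 (SE 0.42, edgeR adjusted p = 2.7e-08). Mnx1 had 0.611 to 0.745 CPM in ESC WT and 1.87 to 2.45 CPM in NPC WT (1.67, SE 0.28). These 3 genes were thus near the limit of detection or low in ESC WT and clearly present in NPC WT.

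Cdx1 went the other way from Cdx2. It had 2.45, 1.56 and 1.43 CPM in ESC WT and 0.253, 0.346 and 0.447 CPM in NPC WT (log2 change −2.31, SE 0.34, edgeR adjusted p = 1.4e-07). Gbx2 had 6.33, 5.54 and 5.74 CPM in ESC WT and 2.53, 4.36 and 2.37 CPM in NPC WT (−0.90, SE 0.15). En2 had 2.45 to 3.65 CPM in ESC WT and 1.39 to 1.57 CPM in NPC WT (−1.14, SE 0.19). All 3 were separated between the stages with no overlap. The share of all genes without overlap was not computed for any comparison, so such separations only describe the values. En1 was 0.461 ± 0.343 CPM in ESC WT and 0.342 ± 0.0422 CPM in NPC WT and was not called (−0.36, SE 0.50). Otx1 was 0.479 ± 0.180 CPM in ESC WT and 0.168 ± 0.0852 CPM in NPC WT, on 38 and 18 counts (−1.48, SE 0.56), a call lost without ESC WT replicate 3 (−1.11), NPC WT replicate 1 (−1.32) or NPC WT replicate 3 (−1.25). Without ESC WT replicate 2 the changes were −2.39 for Cdx1, −0.93 for Gbx2, −1.05 for En2, 3.04 for Egr2, 1.72 for Mnx1, −1.70 for Otx1 and −0.94 for En1, with the members called as before.

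**Figure D1:**
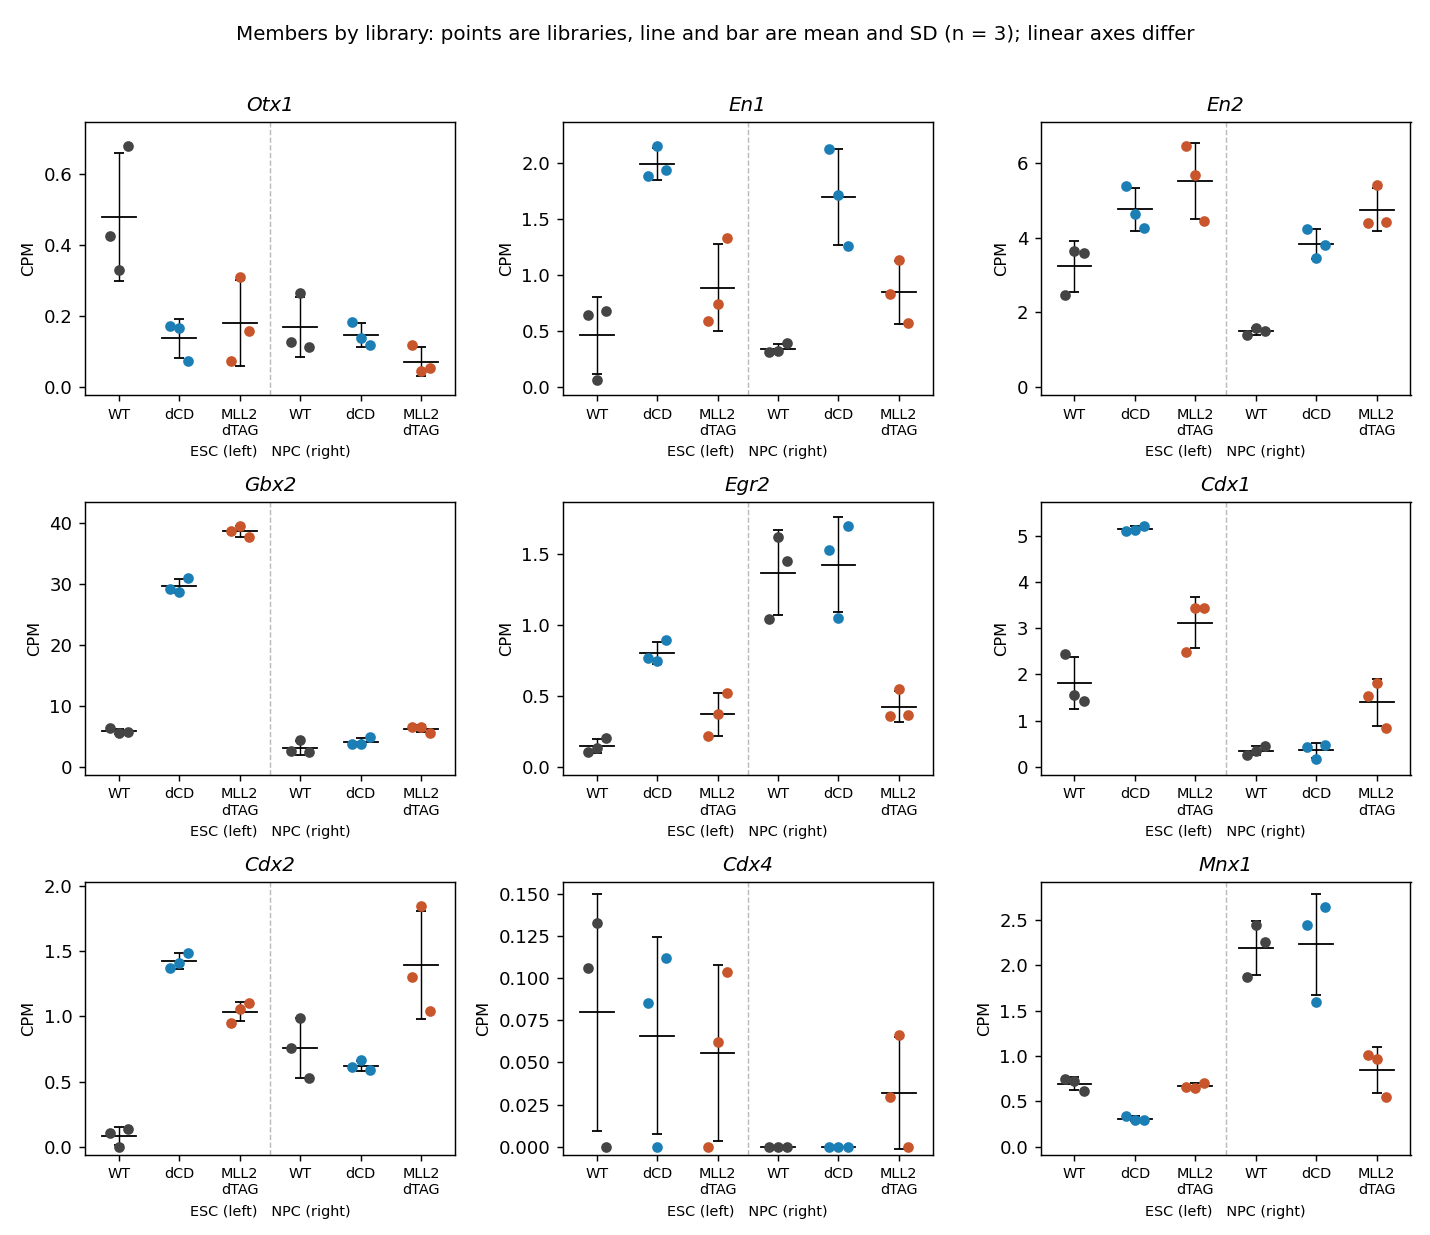
Level of each of the 9 genes (vertical axis, CPM, linear, with a range of its own per panel) in the 18 libraries, ESC on the left and NPC on the right of the dashed line. Points are libraries, and the line and bar are the mean and SD of 3; the Gbx2 panel shows 28.8 to 39.6 CPM in the edited ESC lines against at most 6.61 CPM elsewhere.

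In ESC, before differentiation, both edited lines had more Gbx2, Cdx2, Cdx1, En1, En2 and Egr2 than WT, and the log2 change was largest for Cdx2 in either line. In ESC dCD, 6 of the 8 members tested were higher than in WT and 2 lower, beside 48.3% of all genes called in either direction (25.7% higher, 22.6% lower). In ESC MLL2dTAG, 6 were higher and 1 lower, beside 56.9% called (28.7% higher, 28.2% lower). The median log2 change of the members tested was 1.86 in dCD and 0.94 in MLL2dTAG, against 0.02 and 0.00 over all genes. Because the members were chosen with earlier results of these data known, this contrast is a description and not a test. Otx1, which passed the filter only through ESC WT, is among those counted lower in dCD and is the 1 counted lower in MLL2dTAG. It also enters both medians, which were not taken without it. Both comparisons use the same WT libraries.

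Gbx2 was the most abundant of the 9 in ESC per length of transcript, at 2.70 CPM per kilobase in WT. It had 29.2, 28.8 and 31.0 CPM in ESC dCD and 38.8, 39.6 and 37.8 CPM in ESC MLL2dTAG, against 5.54 to 6.33 CPM in ESC WT. These are 5.05 and 6.60 times the WT mean. Each edited group lay far above WT and the SDs within groups were 1.14 CPM or less. The log2 changes were 2.35 (SE 0.12, edgeR adjusted p = 4.4e-18) in dCD and 2.73 (SE 0.11, edgeR adjusted p = 5.2e-21) in MLL2dTAG. Without ESC WT replicate 2 they were 2.31 and 2.69.

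Cdx2, at 6 counts in ESC WT, had 32, 34 and 40 counts in the ESC dCD libraries (1.37, 1.41 and 1.49 CPM) and 26, 34 and 42 counts in ESC MLL2dTAG (0.952, 1.06 and 1.10 CPM). Every edited library was above every WT library. The ratio of summed counts per depth was 18.6 in dCD, with an exact 95% interval of 8.27 to 51.8, and 13.6 (6.05 to 38.0) in MLL2dTAG. These intervals cover counting error only. All 9 ESC counts of Cdx2 were even or 0, so 1 fragment may often count as 2 and the intervals may be too narrow. The fitted log2 changes were 4.14 (SE 0.50, edgeR adjusted p = 1.2e-08) and 3.69 (SE 0.51, edgeR adjusted p = 1.2e-07). They were 3.48 and 3.03 without ESC WT replicate 2, and 4.98 and 4.53 without replicate 3, so that the call stood while the size of the change did not settle. The ESC dCD libraries thus lay above the NPC WT range of 0.530 to 0.985 CPM, and those of ESC MLL2dTAG overlapped its upper end. Pdx1, the gene next to Cdx2, did not pass the low-count filter. It had 46 counts over the ESC MLL2dTAG libraries and 0 to 4 in each other group. It passed the filter when ESC WT replicate 2 was left out and was then called higher in ESC MLL2dTAG (3.43, SE 1.05, edgeR adjusted p = 0.0053).

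Cdx1 was already present in ESC WT at 1.81 ± 0.555 CPM. It had 5.12, 5.13 and 5.22 CPM in ESC dCD and 2.49, 3.44 and 3.44 CPM in ESC MLL2dTAG. Both groups lay above the WT libraries, the second narrowly. The log2 changes were 1.55 (SE 0.24, edgeR adjusted p = 1.5e-06) and 0.84 (SE 0.25, edgeR adjusted p = 0.0038), and without ESC WT replicate 2 they were 1.46 and 0.75. Cdx4 had 6, 5 and 6 counts in ESC WT, dCD and MLL2dTAG, at or near the limit of detection throughout.

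The engrailed genes of the midbrain-hindbrain boundary were also higher in both lines. En1 had 1.88, 2.15 and 1.94 CPM in ESC dCD and 0.638, 0.0663 and 0.679 CPM in ESC WT, where replicate 2 alone was low. The log2 change in dCD was 2.17 (SE 0.40, edgeR adjusted p = 2.9e-05) and 1.58 without that replicate (adjusted p = 4.1e-04). In ESC MLL2dTAG En1 had 0.586, 0.745 and 1.33 CPM, which overlaps WT. Its call there (1.04, SE 0.43, edgeR adjusted p = 0.039) was lost without ESC WT replicate 2 (0.46) and without ESC MLL2dTAG replicate 3 (0.60), and the value was 1.61 without ESC WT replicate 3. En2 had 4.25 to 5.38 CPM in ESC dCD and 4.44 to 6.45 CPM in ESC MLL2dTAG, above the 2.45 to 3.65 CPM of ESC WT. Its log2 changes were 0.52 (SE 0.17, edgeR adjusted p = 0.011) and 0.73 (SE 0.16, edgeR adjusted p = 0.00023). The first was lost without ESC WT replicate 1 (0.39) or ESC dCD replicate 1 (0.43). Without ESC WT replicate 2 the 2 values were 0.61 and 0.82.

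Of the remaining members, Egr2 had 0.768, 0.745 and 0.894 CPM in ESC dCD (log2 change 2.37, SE 0.47, edgeR adjusted p = 6.1e-05) and 0.220, 0.372 and 0.522 CPM in ESC MLL2dTAG (1.31, SE 0.51, edgeR adjusted p = 0.027), on 12 counts in ESC WT. The second call was lost without ESC WT replicate 1 (1.17), ESC WT replicate 2 (1.20) or ESC MLL2dTAG replicate 3 (0.96), and the first was 2.26 without ESC WT replicate 2. Mnx1 fell in ESC dCD, from 0.695 ± 0.0730 to 0.310 ± 0.0277 CPM (−1.15, SE 0.39, edgeR adjusted p = 0.015), and was 0.672 ± 0.0286 CPM in ESC MLL2dTAG (−0.04, SE 0.32, not called). Without ESC WT replicate 2 these values were −1.10 and 0.02. Mnx1 was therefore lower in ESC dCD while Gbx2 and Cdx2 were higher. Otx1 had 4, 4 and 2 counts in ESC dCD and 2, 10 and 6 in ESC MLL2dTAG, against 8, 10 and 20 in ESC WT. Its log2 changes were −1.81 (SE 0.62) and −1.38 (SE 0.56), and both calls were lost without ESC WT replicate 3 (−1.44 and −1.01). The first was also lost without ESC dCD replicate 3 (−1.50). The second was also lost without ESC WT replicate 1 (−1.45), ESC MLL2dTAG replicate 1 (−1.05) or ESC MLL2dTAG replicate 3 (−1.27), and was −1.97 without ESC MLL2dTAG replicate 2. Without ESC WT replicate 2 they were −2.03 and −1.61, both called.

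**Figure D2:**
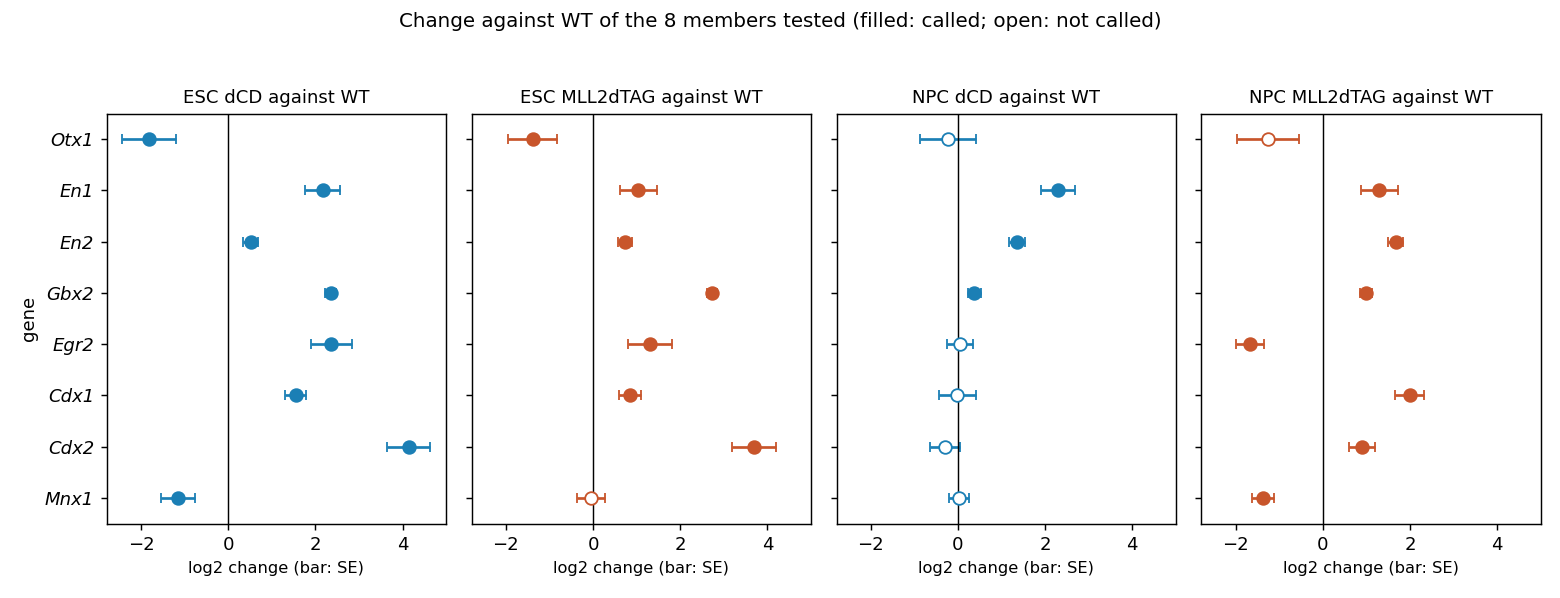
Log2 change against WT (horizontal axis, bar: SE) of the 8 members tested, in ESC and NPC of the dCD and MLL2dTAG lines; filled points were called and open points were not. Gbx2 and Cdx2 lie at 2.35 to 4.14 in ESC of both lines, and in NPC dCD 5 of the 8 members are open and lie between −0.29 and 0.05.

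In NPC the lines parted. NPC dCD differed from NPC WT in the boundary genes En1 and En2, while its Cdx1, Cdx2, Egr2 and Mnx1 were not called. Gbx2 was called slightly higher in NPC dCD, a call lost without single libraries. NPC MLL2dTAG had more Cdx1, Cdx2, Gbx2, En1 and En2 than WT and less Egr2 and Mnx1. Of the 8 members tested, 3 were called higher and 0 lower in NPC dCD, beside 53.5% of all genes called (26.7% higher, 26.8% lower). The 5 members not called in NPC dCD had unadjusted p of 0.39 to 0.99, and DESeq2 also called 3 higher and 0 lower. In NPC MLL2dTAG, 5 were higher and 2 lower, beside 61.7% called (33.3% higher, 28.4% lower). The median log2 change of the members tested was 0.03 in dCD and 0.95 in MLL2dTAG, against −0.02 and 0.03 over all genes.

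En2 had 1.39, 1.57 and 1.51 CPM in NPC WT, 4.23, 3.45 and 3.81 CPM in NPC dCD and 4.39, 5.41 and 4.43 CPM in NPC MLL2dTAG. Neither edited group overlapped WT. The log2 changes were 1.35 (SE 0.18, edgeR adjusted p = 6.1e-08) and 1.67 (SE 0.17, edgeR adjusted p = 2e-10). En1 had 0.316, 0.319 and 0.391 CPM in NPC WT, 2.12, 1.71 and 1.26 CPM in NPC dCD and 0.830, 1.13 and 0.574 CPM in NPC MLL2dTAG, again without overlap. Its log2 changes were 2.29 (SE 0.39, edgeR adjusted p = 5.6e-06) and 1.30 (SE 0.42, edgeR adjusted p = 0.0072), the second lost without NPC MLL2dTAG replicate 2 (1.02). En1 and En2 were thus called higher than in WT in both lines at both stages. In ESC, however, the calls of En1 in MLL2dTAG and of En2 in dCD were lost without single libraries.

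Gbx2 had 2.53, 4.36 and 2.37 CPM in NPC WT, 3.68, 3.72 and 4.84 CPM in NPC dCD and 6.61, 6.58 and 5.61 CPM in NPC MLL2dTAG. The MLL2dTAG group lay above WT (1.00, SE 0.14, edgeR adjusted p = 1e-07). The dCD group overlapped WT, and its call (0.38, SE 0.15, edgeR adjusted p = 0.033) was lost without NPC WT replicate 1 (0.27), NPC WT replicate 3 (0.22) or NPC dCD replicate 3 (0.25), and in a fit of only the 2 groups compared (0.40), while leaving out NPC WT replicate 2, the highest of its group, gave 0.74. The fitted change of Gbx2 against WT was thus smaller in NPC than in ESC in either line, and in NPC dCD a rise was not established.

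Cdx1 had 0.253, 0.346 and 0.447 CPM in NPC WT and 0.429, 0.165 and 0.469 CPM in NPC dCD, which overlap (−0.01, SE 0.43). In NPC MLL2dTAG it had 1.54, 1.81 and 0.834 CPM, 4.00 times the WT mean (1.99, SE 0.33, edgeR adjusted p = 2.6e-06). Cdx2 had 0.613, 0.662 and 0.586 CPM in NPC dCD, inside the NPC WT range of 0.530 to 0.985 CPM (−0.29, SE 0.34), and 1.30, 1.85 and 1.04 CPM in NPC MLL2dTAG (0.89, SE 0.30, edgeR adjusted p = 0.01). That call was lost without NPC WT replicate 3 (0.68) or NPC MLL2dTAG replicate 2 (0.62). Cdx4 had 1, 3 and 0 counts in NPC MLL2dTAG and 0 in the other NPC groups, which is not a detectable difference at this depth.

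Egr2 and Mnx1, the genes of hindbrain segments and motor neurons, were lower in NPC MLL2dTAG. Egr2 had 1.04, 1.62 and 1.45 CPM in NPC WT, 1.53, 1.05 and 1.70 CPM in NPC dCD and 0.356, 0.552 and 0.365 CPM in NPC MLL2dTAG. The last group lay below every library of the other 2 (−1.67 against WT, SE 0.32, edgeR adjusted p = 2.9e-05), and dCD overlapped WT (0.05, SE 0.29). Mnx1 had 1.87, 2.45 and 2.26 CPM in NPC WT, 2.45, 1.60 and 2.64 CPM in NPC dCD and 1.01, 0.971 and 0.548 CPM in NPC MLL2dTAG. It too was below all other NPC libraries in MLL2dTAG (−1.38, SE 0.25, edgeR adjusted p = 1e-05) and overlapped WT in dCD (0.02, SE 0.23). Otx1 stood at 8 counts in NPC MLL2dTAG against 18 in NPC WT (−1.26, SE 0.71) and 15 in NPC dCD (−0.22, SE 0.64), neither called.

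The dCD and MLL2dTAG lines were also set against each other, a comparison that does not use the WT libraries. In ESC, 3 of the 8 members tested were higher in dCD and 2 lower, beside 47.2% of all genes called (23.7% higher, 23.4% lower). Cdx1 (0.71, SE 0.22), En1 (1.12, SE 0.35) and Egr2 (1.06, SE 0.38) were higher in ESC dCD than in ESC MLL2dTAG. The call of Egr2 was lost without ESC dCD replicate 3 (0.97) or ESC MLL2dTAG replicate 1 (0.83). Gbx2 (−0.38, SE 0.09, edgeR adjusted p = 0.00066) and Mnx1 (−1.11, SE 0.38, edgeR adjusted p = 0.015) were lower in ESC dCD. Cdx2 was not called (0.45, SE 0.30), and neither were En2 (−0.21, SE 0.16) and Otx1 (−0.43, SE 0.69).

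In NPC, 3 of the 8 were higher in dCD than in MLL2dTAG and 3 lower, beside 55.9% of all genes called (24.3% higher, 31.6% lower). Egr2 (1.72, SE 0.32, edgeR adjusted p = 2.4e-05), Mnx1 (1.40, SE 0.25, edgeR adjusted p = 1.1e-05) and En1 (0.99, SE 0.34) were higher in NPC dCD. The En1 call was lost without NPC dCD replicate 1 (0.80) or NPC MLL2dTAG replicate 3 (0.77). Cdx1 (−1.99, SE 0.33, edgeR adjusted p = 3.4e-06), Cdx2 (−1.18, SE 0.31) and Gbx2 (−0.62, SE 0.13) were lower. Cdx1 was therefore higher in dCD as ESC and higher in MLL2dTAG as NPC. En2 (−0.32, SE 0.15) and Otx1 (1.04, SE 0.73) were not called.

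Within each edited line the change from ESC to NPC was read as for WT. In dCD, 2 of the 8 members tested were higher in NPC and 3 lower, beside 77.6% of all genes called (38.7% higher, 39.0% lower). Cdx2, which was higher in NPC than in ESC in WT, was lower in dCD, at 1.42 ± 0.0638 CPM in ESC and 0.620 ± 0.0383 CPM in NPC (−1.19, SE 0.32, edgeR adjusted p = 0.0012). Cdx1 went from 5.16 ± 0.0528 to 0.355 ± 0.165 CPM (−3.86, SE 0.30) and Gbx2 from 29.7 ± 1.14 to 4.08 ± 0.656 CPM (−2.86, SE 0.12). Mnx1 was higher in NPC dCD (2.83, SE 0.32), as was Egr2 (0.82, SE 0.32). The Egr2 call was lost without ESC dCD replicate 2, NPC dCD replicate 1 or NPC dCD replicate 3 (0.68 to 0.77). En1 (−0.23, SE 0.32), En2 (−0.31, SE 0.16) and Otx1 (0.11, SE 0.71) were not called.

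In MLL2dTAG, 0 of the 8 were higher in NPC than in ESC and 2 lower, beside 78.2% of all genes called (39.9% higher, 38.3% lower). Gbx2 went from 38.7 ± 0.906 to 6.26 ± 0.570 CPM (−2.63, SE 0.10) and Cdx1 from 3.13 ± 0.551 to 1.40 ± 0.504 CPM (−1.16, SE 0.24). The 3 genes higher in WT NPC than in WT ESC were not called here: Cdx2 gave 0.44 (SE 0.29), Egr2 0.17 (SE 0.39) and Mnx1 0.32 (SE 0.29). En2 (−0.20, SE 0.15), En1 (−0.10, SE 0.36) and Otx1 (−1.36, SE 0.71) were not called either. The unadjusted p of these 6 genes was 0.063 to 0.79, and DESeq2 also called 0 higher and 2 lower.

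Whether a line's difference from WT changed with stage was tested directly, as the change against WT in NPC minus that in ESC. For dCD, 6 of the 8 members tested were called, 2 higher and 4 lower, beside 42.9% of all genes. For MLL2dTAG, 6 were called, 2 higher and 4 lower, beside 49.0%. Gbx2, Cdx2 and Egr2 had negative values in both lines, so that their difference from WT was lower in NPC than in ESC, and En2 had positive values in both. Cdx1 was −1.56 (SE 0.50) in dCD and 1.14 (SE 0.42) in MLL2dTAG, and Mnx1 was 1.17 (SE 0.45) and −1.34 (SE 0.41), in opposite directions. The call of Cdx1 in dCD was lost without NPC WT replicate 3 (−1.35) or NPC dCD replicate 2 (−1.20). That of Cdx1 in MLL2dTAG was lost without any of 5 single libraries (0.89 to 1.13), and that of Mnx1 in dCD without any of 8 (1.03 to 1.24). En1 and Otx1 were not called in either line.

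**Figure D3:**
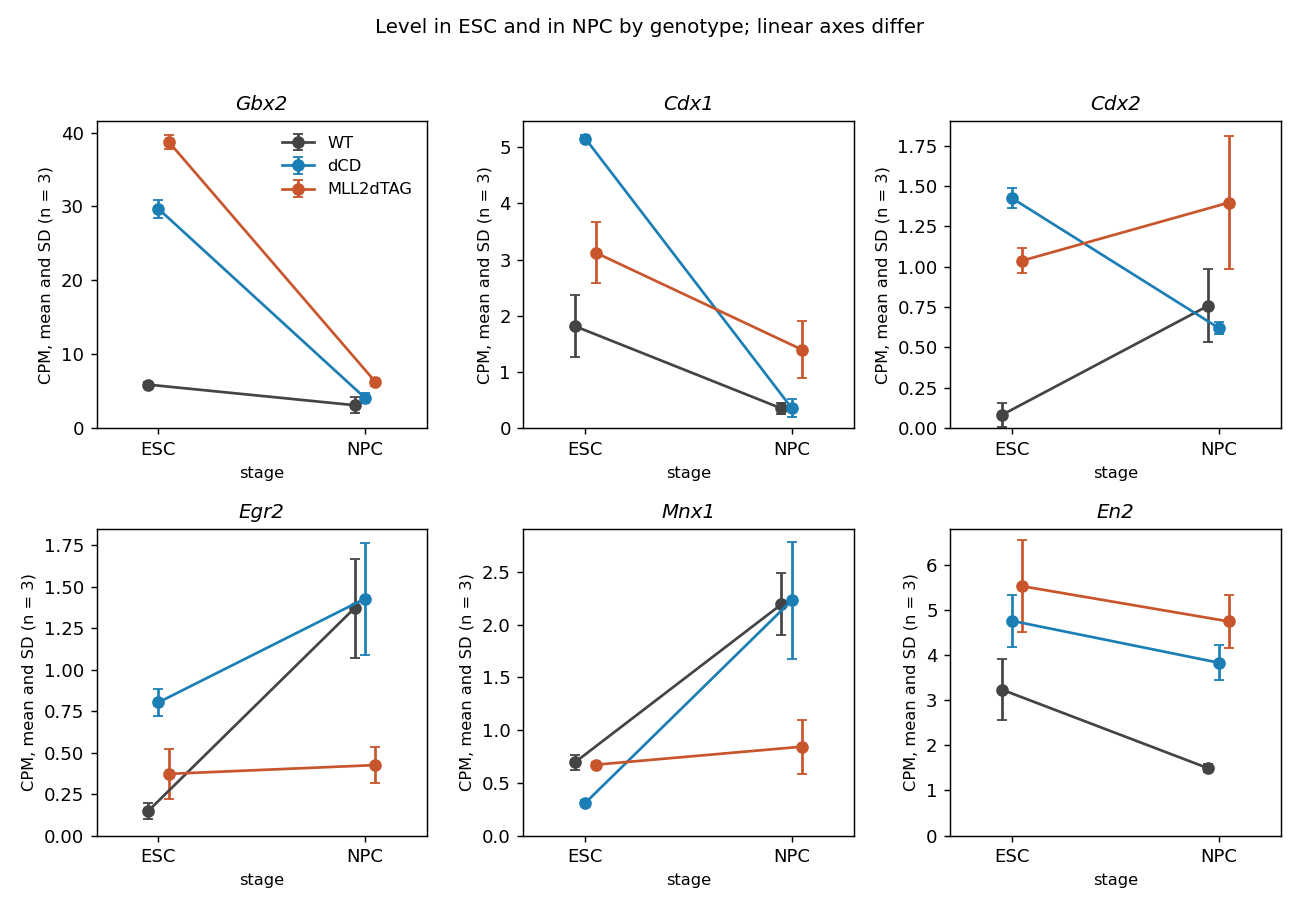
Mean and SD (n = 3) of 6 members in ESC and NPC (horizontal axis) by genotype, in CPM on linear axes that start at 0 and differ in range. Mnx1 and Egr2 reach 2.19 and 1.37 CPM in NPC WT and 0.842 and 0.424 CPM in NPC MLL2dTAG, and the Cdx2 lines of WT and dCD cross.

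The order of the 6 groups differed from gene to gene. For Gbx2 the highest were ESC MLL2dTAG and then ESC dCD, each clear of the next, and NPC MLL2dTAG and ESC WT overlapped below them. For Cdx1, ESC dCD, ESC MLL2dTAG and ESC WT followed each other without overlap, ESC WT overlapped NPC MLL2dTAG, and NPC dCD and NPC WT were lowest and overlapped. For Egr2 and Mnx1, NPC dCD and NPC WT were highest and overlapped each other. For Cdx2 the 5 groups other than ESC WT ran from 1.42 to 0.620 CPM with overlap between each neighbour and the next, and ESC WT was clear below them. For En1 every group overlapped its neighbour in the order. Per length of transcript, Gbx2 led in each of the 6 groups, from 1.42 CPM per kilobase in NPC WT to 17.8 in ESC MLL2dTAG, and all other members were at 2.95 CPM per kilobase or less.

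Other genes of each axial region, from lists chosen with earlier results of these data known, were counted beside the members. Over all genes, 25.7% were called higher and 22.6% lower in ESC dCD, and 28.7% and 28.2% in ESC MLL2dTAG. In NPC the shares were 26.7% and 26.8% in dCD, and 33.3% and 28.4% in MLL2dTAG. These shares stand beside every list count against WT below, and counts near them are not read as results on a list. The boundary list stands beside En1 and En2. Of 10 tested, 2 were higher and 2 lower in ESC dCD, and 1 higher and 3 lower in ESC MLL2dTAG. There Fgf8, the signal of the boundary, was 0.505 ± 0.0599 against 2.76 ± 0.243 CPM in WT (−2.44, SE 0.33). In NPC dCD 5 were higher and 1 lower, among them Pax2 (12.3 ± 0.404 against 5.92 ± 0.425 CPM), Wnt1 (15.6 ± 1.70 against 7.46 ± 1.67 CPM) and Cnpy1 (4.02 ± 0.318 against 1.56 ± 0.195 CPM). Pax5 (4.30 ± 0.315 against 5.94 ± 0.326 CPM) and Lmx1b (1.60 ± 0.315 against 2.07 ± 0.764 CPM) had lower means there than in WT. In NPC MLL2dTAG 3 were higher and 3 lower, with Fgf18 up (1.25, SE 0.13) and Pax8 down (−0.93, SE 0.15). The counts in ESC were 2 higher and 1 lower in dCD, and 3 and 3 in MLL2dTAG, without ESC WT replicate 2. The median log2 change of the list was 0.19, −0.21, 0.46 and 0.02 in these 4 comparisons, against −0.02 to 0.03 over all genes.

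Hindbrain genes are the company of Gbx2 and Egr2. Of 10 tested, 4 were higher and 2 lower in ESC dCD, 7 and 1 in ESC MLL2dTAG, 3 and 2 in NPC dCD, and 6 and 2 in NPC MLL2dTAG. Those of NPC dCD are near the 26.7% and 26.8% of all genes called higher and lower there. Leaving out ESC WT replicate 2 gave 3 and 3 in ESC dCD and 6 and 1 in ESC MLL2dTAG. Epha4, a receptor of hindbrain segments that Egr2 is known to activate, was 177 ± 4.04 CPM in ESC MLL2dTAG and 80.9 ± 5.67 CPM in ESC WT (1.13, SE 0.05). In NPC MLL2dTAG, where Egr2 was lower, Epha4 was higher, at 76.2 ± 1.73 against 25.8 ± 1.66 CPM (1.57, SE 0.05). Nr2f2 was 204 ± 2.58 CPM in NPC dCD and 315 ± 6.22 CPM in NPC WT (−0.62, SE 0.05).

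Caudal progenitor genes, the company of the Cdx genes in the tail bud, were mixed. Of 11 tested, 6 were higher and 3 lower in ESC dCD, 4 and 4 in ESC MLL2dTAG, 3 and 3 in NPC dCD, and 4 and 3 in NPC MLL2dTAG, and no call of this list in ESC changed without ESC WT replicate 2. T, the brachyury gene, was 15.5 ± 1.25 CPM in ESC dCD, above the 4.08 ± 0.498 CPM of ESC WT (1.92, SE 0.19), and 1.63 ± 0.144 CPM in ESC MLL2dTAG, below it (−1.34, SE 0.23). T thus moved in opposite directions in the lines, while Cdx2 was higher in both. Sp5, a WNT target, was 1.62 ± 0.343 CPM in ESC dCD and 0.333 ± 0.198 CPM in ESC WT. In NPC MLL2dTAG Cyp26a1, which degrades retinoic acid, was 251 ± 10.2 against 135 ± 3.92 CPM (0.90, SE 0.04). In ESC Cyp26a1 was called lower in dCD (−0.83) and in MLL2dTAG (−1.72). Fgf4 (−0.72) and Tbx6 (−0.56) were also called lower in ESC dCD. The summed level of the list was 230 to 244 CPM in ESC dCD and 322 to 324 CPM in ESC MLL2dTAG, against 331 to 333 CPM in ESC WT. Msgn1 was at 0 in all 6 groups.

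Forebrain genes, the neighbours of Otx1, gave 0 called of 10 tested in ESC dCD by edgeR, with 1 at an unadjusted p under 0.05 and 1 called by DESeq2. In ESC MLL2dTAG 2 were higher and 3 lower, with Otx2 down from 61.0 ± 2.82 to 34.9 ± 0.895 CPM (−0.80, SE 0.07). In NPC dCD 5 were higher and 2 lower, and in NPC MLL2dTAG 4 and 3. Emx2 was 67.3 ± 1.75 CPM in NPC WT, 12.7 ± 1.03 CPM in NPC dCD and 5.33 ± 0.612 CPM in NPC MLL2dTAG. Of the 9 motor neuron genes tested beside Mnx1, 2 were higher in each ESC line and none lower by edgeR and by DESeq2, 4 were higher and 1 lower in NPC dCD, and 3 higher and 4 lower in NPC MLL2dTAG. Motor neuron counts were 1 higher and 0 lower in ESC dCD, and 2 and 1 in ESC MLL2dTAG, without ESC WT replicate 2. No forebrain call in ESC changed without it. Isl1 was higher in NPC MLL2dTAG (15.1 ± 0.484 against 8.65 ± 0.569 CPM) and Neurog2 lower (1.87 ± 0.478 against 4.30 ± 0.389 CPM).

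**Figure D4:**
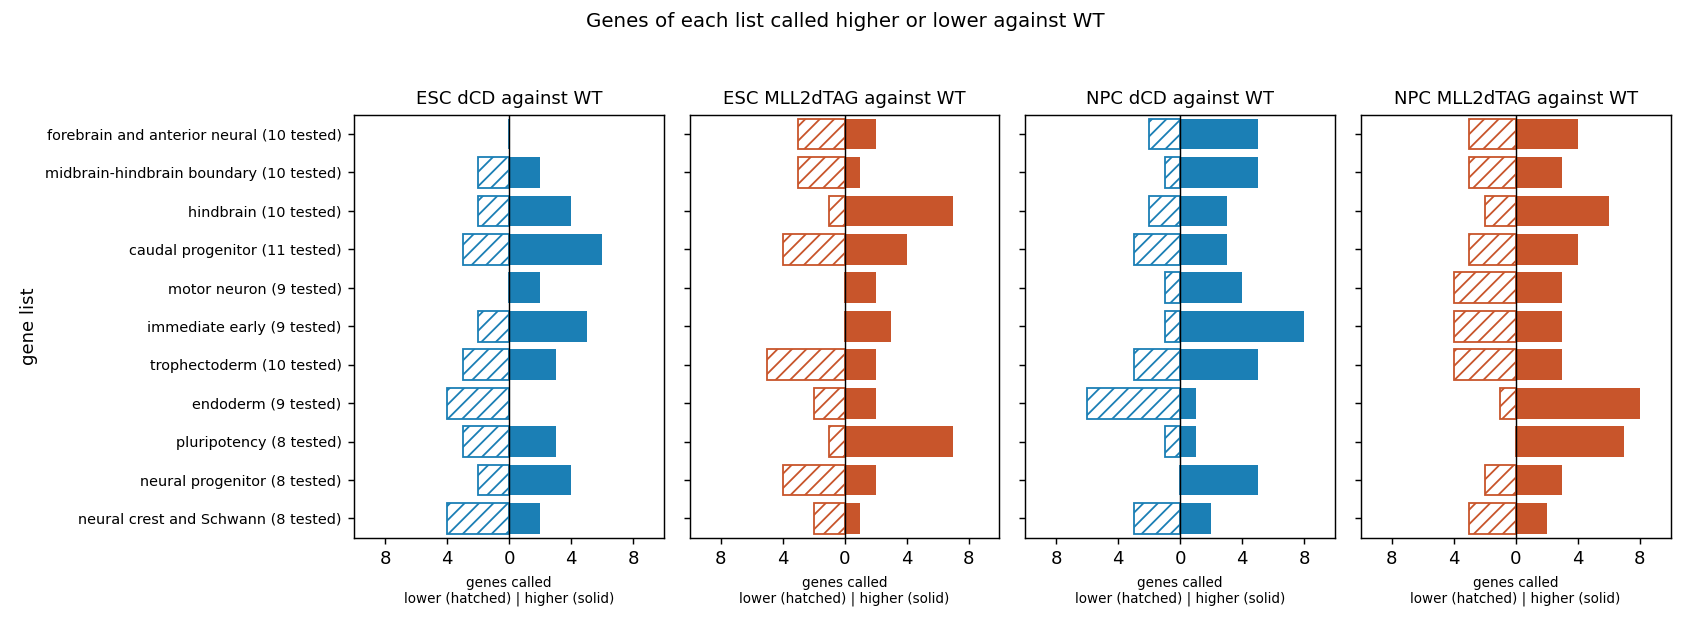
Number of genes of each list called lower (hatched bars, to the left of 0) or higher (solid bars, to the right) against WT in 4 comparisons, with the number tested beside each name. Endoderm (8 of 9 tested) and pluripotency (7 of 8 tested) lists have the longest bars to the right in NPC MLL2dTAG, and immediate early genes (8 of 9 tested) in NPC dCD. Over all genes, 33.3% were called higher in NPC MLL2dTAG and 26.7% in NPC dCD.

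Markers of other cell types and states that use the same members moved with some of these results, and in bulk RNA fewer cells of a type and less RNA per cell cannot be told apart. Of 8 pluripotency genes, 7 were higher and none lower in NPC MLL2dTAG, where their summed level was 295 to 301 CPM against 120 CPM in each NPC WT library. Pou5f1 was 26.9 ± 2.08 against 1.01 ± 0.234 CPM, while Dppa3 was at 0 in all NPC groups. The higher Gbx2, Cdx1 and En2 of NPC MLL2dTAG, all genes with more mRNA in ESC WT than in NPC WT, stand beside this value, and its part in them was not tested. In NPC dCD, 1 pluripotency gene was higher and 1 lower, with a summed level of 131 to 138 CPM. In ESC MLL2dTAG 7 of 8 were higher (6 without ESC WT replicate 2) and 1 lower (summed 3270 to 3370 against 2490 to 2610 CPM), beside the higher Gbx2 there.

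Endoderm genes bear on Cdx2 and Mnx1. Of 9 tested, 8 were higher and 1 lower in NPC MLL2dTAG, with a summed level of 839 to 862 CPM against 440 to 454 CPM in NPC WT, and Gata4 was 253 ± 3.76 against 62.6 ± 0.663 CPM. In NPC dCD 1 was higher and 6 lower (340 to 345 CPM). Pdx1, which lies next to Cdx2, was at 0 in NPC WT. Trophectoderm genes bear on Cdx2 in ESC. Of 10 tested, 3 were higher and 3 lower in ESC dCD, beside 25.7% and 22.6% of all genes. In ESC MLL2dTAG 2 were higher and 5 lower, beside 28.7% and 28.2%. The summed levels were 147 to 151 CPM in ESC dCD and 103 to 108 CPM in ESC MLL2dTAG, against 141 to 162 CPM in WT. The first counts were 3 and 4 without ESC WT replicate 2, and the second were the same. Gata3 was 1.20 ± 0.322 CPM in ESC dCD and 0.192 ± 0.0801 CPM in ESC WT, and Krt18 was 5.49 ± 0.724 CPM in ESC MLL2dTAG and 37.5 ± 3.74 CPM in ESC WT. Each line also had calls the other way. Gata3 (log2 change 1.09) and Tfap2a (2.11) were called higher in ESC MLL2dTAG too, and Krt7 was called lower in ESC dCD (−0.57). The part of these cell types in the values of Cdx2 and Mnx1 was not tested.

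Immediate early genes, which respond to handling and serum and include the Egr family, moved with Egr2 in part. Of 9 tested, 5 were higher and 2 lower in ESC dCD, where Egr2 was higher, with no call changed without ESC WT replicate 2, and the summed level of the list was 194 to 202 against 181 to 185 CPM in WT. Fosb was 3.21 ± 0.404 CPM there and 0.764 ± 0.0860 CPM in ESC WT. In NPC dCD 8 were higher and 1 lower (460 to 513 against 267 to 287 CPM), with Egr1 at 269 ± 11.8 against 126 ± 3.99 CPM, while Egr2 was not called. In NPC MLL2dTAG 3 were higher and 4 lower (227 to 231 CPM), with Egr1 at 85.8 ± 3.47 CPM and Fosb at 6.54 ± 0.507 against 28.1 ± 1.74 CPM, beside the lower Egr2. Of the 8 neural crest and Schwann cell genes, 2 were higher and 3 lower in NPC MLL2dTAG, with a summed level of 42.9 to 45.8 against 56.8 to 57.8 CPM. The part of these lists in the Egr2 values was not tested.

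Gbx2 overlaps the antisense gene D130058E05Rik. The kit keeps strand, but the strand setting of the counting is not given in the sources used here, so reads of the pair cannot be told apart. D130058E05Rik was itself called higher in both lines at both stages, with log2 changes of 0.51 and 1.26 in ESC dCD and MLL2dTAG and 0.79 and 1.12 in NPC. The call in ESC dCD was lost without ESC WT replicate 2 (0.36), and that in ESC MLL2dTAG was not (1.10). Its level in ESC MLL2dTAG was 6.20 ± 0.625 CPM, well below that of Gbx2. The antisense gene Gm43610 at En2 had 3 to 12 counts a group. Of 18 protein-coding neighbours of the 9 genes in GENCODE M21, 15 were tested. In ESC dCD 5 were higher and 5 lower, beside 25.7% and 22.6% of all genes. Of these neighbours, 2 were called in the direction of their member and 6 in the opposite one. In NPC MLL2dTAG 8 were higher and 3 lower, beside 33.3% and 28.4% of all genes, with 2 in the direction of their member and 6 against it. The ESC dCD counts were 5 higher and 3 lower without ESC WT replicate 2. Cnpy1, next to En2, was called higher with it in NPC dCD (1.36, SE 0.12) and NPC MLL2dTAG (0.58, SE 0.14). In ESC dCD, where En2 was higher, Cnpy1 was called lower (−0.16), a call lost without ESC WT replicate 2 (−0.11). Insig1, on the other side, was called lower in ESC dCD (−1.02), ESC MLL2dTAG (−0.99) and NPC dCD (−0.12), where En2 was higher. In NPC MLL2dTAG Insig1 was called higher (0.82), as was En2.

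As a description of pattern, the 2 genes most like a member were taken by Pearson's r of log2(CPM + 1) over the 18 libraries, which share stage, line and depth, among 13676 genes. For Gbx2 these were Oxnad1 (0.979) and Ecd (0.978), and for Cdx1 Bub3 (0.972) and Sart1 (0.967). For En2 they were Wars (0.961) and Hoxd13 (0.955), a posterior Hox gene at 0.552 CPM in NPC WT and 2.79 to 3.14 CPM in the edited NPC. For Cdx2 they were Spred1 (0.910) and Ddah1 (0.903), for Mnx1 Rapgefl1 (0.953) and Vangl2 (0.942), a planar polarity gene, and for Egr2 Cxx1b (0.945) and Dchs2 (0.944). For En1 they were Mycbp (0.879) and Mrpl20 (0.862). Among the members, r was highest for Gbx2 and Cdx1 (0.887) and lowest for Cdx1 and Mnx1 (−0.865).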

How the data were processed

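Poly(A) RNA sequencing of E14 ESC and of NPC made from them was analysed in 18 libraries, 6 groups of 3. The values are whole-number counts per gene as deposited; HTSeq is named in the submitters' processing notes. The aligner, the genome build and the strand setting of the counting are not given in the sources used here. Columns were matched to samples by name. Another 6 columns of this file and 12 of the other deposited file were not matched to a sample and were not used.

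The counts were tested with edgeR 4.0.16 (R 4.3.3, limma 3.58.1): TMM scaling (factors 0.967 to 1.05), filterByExpr by group, quasi-likelihood fit of 6 group means with 12 residual degrees of freedom over all 18 libraries, 20511 of 51734 genes tested. Genes were called at a Benjamini-Hochberg adjusted p under 0.05 over all genes tested. The SE is the log2 change divided by the root of the F statistic. Exact 95% intervals of count ratios and the limit of 3 counts cover counting error only. Low counts were even numbers in 60.8% to 66.5% of cases, so 1 fragment may often count as 2, and counting intervals may be too narrow.

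The 9 genes and the lists beside them were chosen with earlier results of these data known. All members are named. Of each list, the called genes named are among the 4 with the largest absolute log2 change and a mean of at least 1 CPM, and the 2 genes most like a member in pattern are named, except for Otx1, for which this is not reported here. Pdx1, Msgn1 and, in NPC, Dppa3 fall outside that rule and were chosen after their values were seen. Gata3 and Tfap2a in ESC MLL2dTAG, and Krt7, Cyp26a1, Fgf4 and Tbx6 in ESC dCD, were added without regard to that rule, after their values were seen. The same holds for Pax5 and Lmx1b in NPC dCD. Replicate numbers are shared between groups, but no pair of groups showed paired deviations, so they were not used as a block. Alternatives were other scalings (DESeq2 size factors, upper quartile, library totals), no low-count filter, a replicate block, halved counts, only the groups compared, DESeq2 1.42.0, and each library left out in turn. The lists and neighbours without ESC WT replicate 2 were added after seeing the data.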

Additional observations from a re-analysis of the deposited data

Results flagged for a closer look

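The difference between an edited line and WT was called as depending on stage for 6 of the 8 genes tested in each line. The same was called for 42.9% of all genes in dCD and 49.0% in MLL2dTAG, so such a call is common. The term used was the interaction of the edgeR fit (change against WT in NPC minus change against WT in ESC, log2, Benjamini-Hochberg adjusted over all genes). For Gbx2 it was −1.96 (SE 0.20, adjusted p = 2.3e-10) in dCD and −1.73 (SE 0.19, adjusted p = 9.4e-10) in MLL2dTAG, with every edited ESC library above 28 CPM. For Cdx2 it was −4.43 (SE 0.63, adjusted p = 3.1e-07) in dCD and −2.80 (SE 0.64, adjusted p = 0.00035) in MLL2dTAG. The Cdx2 values rest on 6 counts in ESC WT: without ESC WT replicate 2 they were −3.77 and −2.14, and without replicate 3 −5.27 and −3.64. For Egr2 it was −2.32 (SE 0.55, adjusted p = 0.00077) in dCD and −2.98 (SE 0.60, adjusted p = 7.3e-05) in MLL2dTAG.

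En2 went the other way, at 0.83 (SE 0.25, adjusted p = 0.0066) in dCD and 0.94 (SE 0.24, adjusted p = 0.0013) in MLL2dTAG. Cdx1 and Mnx1 had opposite signs in the lines. Cdx1 gave −1.56 (SE 0.50, adjusted p = 0.011) in dCD and 1.14 (SE 0.42, adjusted p = 0.024) in MLL2dTAG. Mnx1 gave 1.17 (SE 0.45, adjusted p = 0.036) in dCD and −1.34 (SE 0.41, adjusted p = 0.0062) in MLL2dTAG. The positive call of Mnx1 in dCD was lost in 10 of 20 alternatives, and that of Cdx1 in MLL2dTAG in 5 of 20. Without ESC WT replicate 2 the values in dCD and MLL2dTAG were −1.93 and −1.69 for Gbx2, −2.22 and −2.87 for Egr2, 0.74 and 0.85 for En2, −1.47 and 1.23 for Cdx1, and 1.11 and −1.40 for Mnx1, of which the 1.11 of Mnx1 was not called. Whether the lines' interactions differ from each other was not tested as a term of its own. Both use the same WT libraries.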

How the results depend on the processing

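Of 88 changes of the 8 genes tested over 11 comparisons, 62 were called. Of these, 47 stayed called under every alternative run, 15 were lost under at least 1, and 0 changed sign. The number of genes called in ESC MLL2dTAG against WT was 7, and 4 with only the groups compared, a fit with fewer libraries. Leaving out single libraries gave 4 to 7 there, with 4 without ESC MLL2dTAG replicate 3. The other 10 counts stayed within 1.5 times. With the replicate block the counts were 8 and 7 for dCD and MLL2dTAG against WT in ESC, and 3 and 7 in NPC, and it changed no call of the 8 genes. Same-numbered libraries of 2 groups correlated in their deviations at −0.113 to 0.0573. Such values show no pairing but cannot exclude a shared batch, because the deviations may be mostly counting noise. Values that changed sign were all of changes not called. Cdx1 in NPC dCD against WT (−0.01) was 0.00 with DESeq2 size factors and 0.01 with no filter, only the groups compared or DESeq2, and −0.27 to 0.35 with libraries left out. Mnx1 in ESC MLL2dTAG against WT (−0.04) was 0.02 with no filter, 0.00 with halved counts and −0.13 to 0.02 with libraries left out, and in NPC dCD against WT (0.02) it was −0.01 with halved counts and −0.12 to 0.21 with libraries left out. Leaving out libraries also moved Egr2 in MLL2dTAG NPC against ESC to −0.08 to 0.53 and in NPC dCD against WT to −0.11 to 0.23. For En1 it gave −0.94 to 0.21 in WT NPC against ESC, −0.38 to 0.37 in MLL2dTAG NPC against ESC, and −0.44 to 0.71 and −0.30 to 0.84 in the dCD and MLL2dTAG interactions. For Otx1 it gave −0.20 to 0.30 in dCD NPC against ESC, −0.75 to 0.17 in ESC dCD against MLL2dTAG, −0.44 to 0.29 in NPC dCD against WT and −0.37 to 0.71 in the MLL2dTAG interaction. The cause of these shifts was not tested.

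In ESC WT depth limits Cdx2, Cdx4 and Egr2 most, at 6, 6 and 12 counts over its 3 libraries. Gbx2 in NPC dCD against WT was lost with only the groups compared (0.40), where 2 genes were called instead of 3, as was En1 in ESC MLL2dTAG (1.02). Otx1 calls were also lost with no filter (−1.78 in ESC dCD, −1.32 in ESC MLL2dTAG, −1.38 in WT NPC against ESC).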

Other observations

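Neural progenitor genes, which mark the state the NPC protocol makes, gave 5 higher and 0 lower of 8 tested in NPC dCD against WT by edgeR (5 at an unadjusted p under 0.05), with a median log2 change of 0.71. In NPC MLL2dTAG 3 were higher and 2 lower, with a median of 0.10. In ESC dCD 4 were higher and 2 lower, and in ESC MLL2dTAG 2 and 4; leaving out ESC WT replicate 2 gave 5 and 2, and 2 and 4. Neural crest and Schwann cell genes gave 2 higher and 4 lower of 8 in ESC dCD, 1 and 2 in ESC MLL2dTAG, and 2 and 3 in NPC dCD. The ESC counts were 2 and 3, and 1 and 1, when ESC WT replicate 2 was left out. Over all genes, 25.7% were called higher and 22.6% lower in ESC dCD, and 28.7% and 28.2% in ESC MLL2dTAG. In NPC the shares were 26.7% and 26.8% in dCD, and 33.3% and 28.4% in MLL2dTAG.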
